A study of Mus musculus with 8 samples.

Results

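Immediate early genes and the genes that damp their signal were examined as a set of 33 members, given by name: the AP-1 factors (Fos, Fosb, Fosl1, Fosl2, Jun, Junb, Jund, Atf3) with the small Maf factor Maff, Egr1, Egr2 and Egr3, Nr4a1, Nr4a2 and Nr4a3, the Ier genes Ier2, Ier3 and Ier5, the dual-specificity phosphatases Dusp1, Dusp2, Dusp4, Dusp5 and Dusp6, Klf2, Klf4, Klf6 and Klf10 with Myc, Btg2 and Zfp36, and Gadd45a, Gadd45b and Gadd45g. All 33 were found among the 30153 genes of the deposited table. Heart RNA was sequenced in 8 libraries. Of these, 4 came from aged C57/BL6 mice labelled haplotype II that were given a western diet, and 4 came from aged haplotype II mice of the same strain with no diet named, called control here. The series title describes the mice as overexpressing the human angiotensin receptor type 1, which both groups thus carry, and no group without it was analysed here. The sources used here name neither the promoter that drives the human gene nor the sex and exact age of the mice, the length of feeding, the hour of collection or any batch. Separate animals are not stated for the libraries either, and the p-values below therefore describe spread among 8 samples that may be partly technical.

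Immediate early genes are switched on within minutes of a stimulus, without new protein synthesis, through kinase cascades that end on transcription factors such as SRF and CREB. Fos and Jun proteins pair to form AP-1, Egr and Nr4a proteins are DNA-binding factors of their own, and the response is cut short by the Dusp phosphatases, which remove phosphate from MAP kinases, and by Zfp36, which speeds decay of AU-rich mRNAs. In heart these genes are known to answer to angiotensin II, stretch, adrenergic stimulation and tissue handling, and their mRNAs are short-lived.

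Ventricular cardiomyocyte markers were abundant in every library: 6 transcripts (Myh6, Tnnt2, Tnni3, Actc1, Myl2, Myl3) summed to between 38190 and 47730 TPM with western diet and between 45190 and 49520 TPM in controls. TPM is a length-corrected share of all transcripts and keeps no read depth, so depth and detection limits are unknown. Single libraries stood apart in other ways. The atrial transcripts Myl7, Myl4 and Sln together made 594 TPM in western diet replicate 2, and 365 and 2614 TPM in control replicates 1 and 3, where the remaining 5 libraries had 3.14 to 7.26 TPM. Transcripts of 4 Y-linked genes summed to 41.3 TPM in western diet replicate 4, 0.227 to 0.270 TPM in western diet replicates 1 to 3 and 38.6 to 52.6 TPM in controls. Haemoglobin transcripts summed to 14210 TPM in western diet replicate 1, between 1967 and 5266 TPM in western diet replicates 2 to 4, and between 2369 and 4442 TPM in controls, and the mitochondrially encoded share of TPM was 27.3% in western diet replicate 1, 34.6% to 39.3% in western diet replicates 2 to 4 and 34.6% to 36.5% in controls.

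Promoter sequence was available for 26 of the 33 members (RefSeq, GRCm38.p6, 250 bases before to 50 after the annotated start). Fosl1, Egr1, Egr3, Ier2, Dusp4, Klf10 and Myc had none and were not searched, nor was sequence farther upstream of any member. The promoters below are shown because they hold the binding motifs best known for early genes and belong to members whose levels are described next. Capitals mark the matches found, on either strand: the CRE, TGACGTCA, in Dusp1 (chr17:26508423-26508722, minus strand), Btg2 (chr1:134079106-134079405, minus strand) and Maff (chr15:79347270-79347569, plus strand, 1 of its 3 annotated starts); the EGR motif, GCGNGGGCG, in Btg2, Maff, Klf2 (chr8:72318812-72319111, plus strand) and Zfp36 (chr7:28379179-28379478, minus strand); the MEF2 motif in Klf2; and the CArG box bound by SRF in Zfp36.
Dusp1: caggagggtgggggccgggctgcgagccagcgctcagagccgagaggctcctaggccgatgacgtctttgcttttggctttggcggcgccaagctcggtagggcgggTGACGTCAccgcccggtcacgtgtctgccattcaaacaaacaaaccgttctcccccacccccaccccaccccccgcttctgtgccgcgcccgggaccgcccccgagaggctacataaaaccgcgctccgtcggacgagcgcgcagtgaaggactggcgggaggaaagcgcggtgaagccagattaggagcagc
Btg2: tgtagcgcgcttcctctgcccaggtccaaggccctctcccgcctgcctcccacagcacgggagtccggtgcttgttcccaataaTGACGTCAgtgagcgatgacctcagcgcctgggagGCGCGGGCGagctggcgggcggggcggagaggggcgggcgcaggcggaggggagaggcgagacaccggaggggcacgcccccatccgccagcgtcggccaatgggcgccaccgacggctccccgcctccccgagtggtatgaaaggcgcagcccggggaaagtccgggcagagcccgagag
Maff: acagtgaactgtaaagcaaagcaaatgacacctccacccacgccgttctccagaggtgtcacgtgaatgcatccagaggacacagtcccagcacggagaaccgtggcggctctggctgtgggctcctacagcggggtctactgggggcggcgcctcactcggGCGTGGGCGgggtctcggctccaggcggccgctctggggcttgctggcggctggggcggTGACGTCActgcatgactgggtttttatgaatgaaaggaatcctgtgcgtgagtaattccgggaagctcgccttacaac
Klf2: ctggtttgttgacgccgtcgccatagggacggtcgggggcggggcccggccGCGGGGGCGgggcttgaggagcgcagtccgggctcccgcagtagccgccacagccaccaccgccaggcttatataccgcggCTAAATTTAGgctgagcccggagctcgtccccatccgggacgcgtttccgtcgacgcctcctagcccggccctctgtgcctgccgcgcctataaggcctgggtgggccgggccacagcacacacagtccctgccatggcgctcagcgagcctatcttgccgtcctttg
Zfp36: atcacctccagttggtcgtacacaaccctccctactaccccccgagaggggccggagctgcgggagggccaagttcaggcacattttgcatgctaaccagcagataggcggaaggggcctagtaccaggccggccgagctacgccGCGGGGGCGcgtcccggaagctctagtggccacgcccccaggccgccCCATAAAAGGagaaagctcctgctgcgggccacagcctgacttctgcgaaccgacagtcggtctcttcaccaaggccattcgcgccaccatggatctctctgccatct

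The CRE of Dusp1 begins 143 bases before the start, that of Btg2 166 bases and that of Maff 29 bases before it, and no match overlapped another motif's match in these 5 promoters. Over all 27025 genes with a promoter of this length, 2.03% held a CRE, against 3 of the 26 members. The EGR motif was in 11 of 26 members and in 6.27% of all genes, the CArG box in 3 of 26 members (Egr2, Dusp5, Zfp36) and in 1.81% of all genes, and the MEF2 motif in 4 of 26 members (Jun, Atf3, Nr4a2, Klf2) and in 3.7% of all genes. No member promoter held the AP-1 motif TGANTCA, which 8.97% of all genes did. The member promoters were richer in G and C, with a median of 62.7% against 52.7% over all genes, and the EGR motif is itself rich in both bases. These are matches of letters and not measured binding.

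The members were also compact genes. The median genomic span was 5162 bases over the 33 members and 24484 bases over the 10666 tested protein-coding genes, and the median exon number of the coding transcript with the longest reading frame was 4 against 9. The pentamer ATTTA, the core of AU-rich elements, occurred at least 1 time in the 3′ UTR of 30 of 33 members (90.9%) and of 64.5% of those protein-coding genes. Fosl2 held 8 copies in a UTR of 4656 bases (1.72 per kilobase), and Egr3 and Klf6 held 7 each. Fos, Jun, Maff and Dusp1 were among the members with 4, and Ier2, Gadd45b and Gadd45g held none. The median density was 2.26 copies per kilobase of UTR in the members against 1.23.

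Western diet was set against control to ask whether these early response genes differ with the diet in hearts of aged mice with the human receptor. Most members had higher means with western diet, but no member passed the test over all genes. Of the 33, 25 reached 1 TPM in 4 or more libraries and were tested on log2(TPM + 1) with limma, and 22 of the 25 had a higher mean log2 value with western diet, as did 66.4% of the 10969 genes tested. The median log2 fold change was 0.51 over the 25 and 0.06 over all genes tested, and the members ranged from -0.16 (Dusp5) to 0.83 (Maff). At a limma adjusted p under 0.05, 0 of 25 members were called in either direction, where 0.301% of all genes were called (0.228% higher and 0.0729% lower). At an unadjusted p under 0.05, 11 of 25 were higher (9.2% of all genes) and 0 of 25 lower (2.51% of all genes). The groups did not overlap for 2 of 25 members, Dusp1 and Myc, both higher with western diet, and 0 of 25 were lower without overlap. Over all genes the groups did not overlap for 6.6%, with 4.85% higher and 1.75% lower. In bulk tissue, fewer cells of a type and less RNA per cell cannot be told apart, and this holds for every level given here. Myc reached 1 TPM in western diet libraries only, so it entered the test through the group in which it was high. Its lack of overlap was therefore fixed by the filter. Without Myc, 10 of 24 members were higher at an unadjusted p under 0.05, and 1 of 24, Dusp1, was higher without overlap. The count of 11 depended on single libraries: it was 17 without western diet replicate 3 (10.1% of all genes), 5 without replicate 1 (6.68%) or replicate 2 (5.29%), and 4 without the 3 libraries with atrial transcripts (4.58%). With a term for Y-linked transcripts it was 2 (2.39%).

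**Figure D1:**
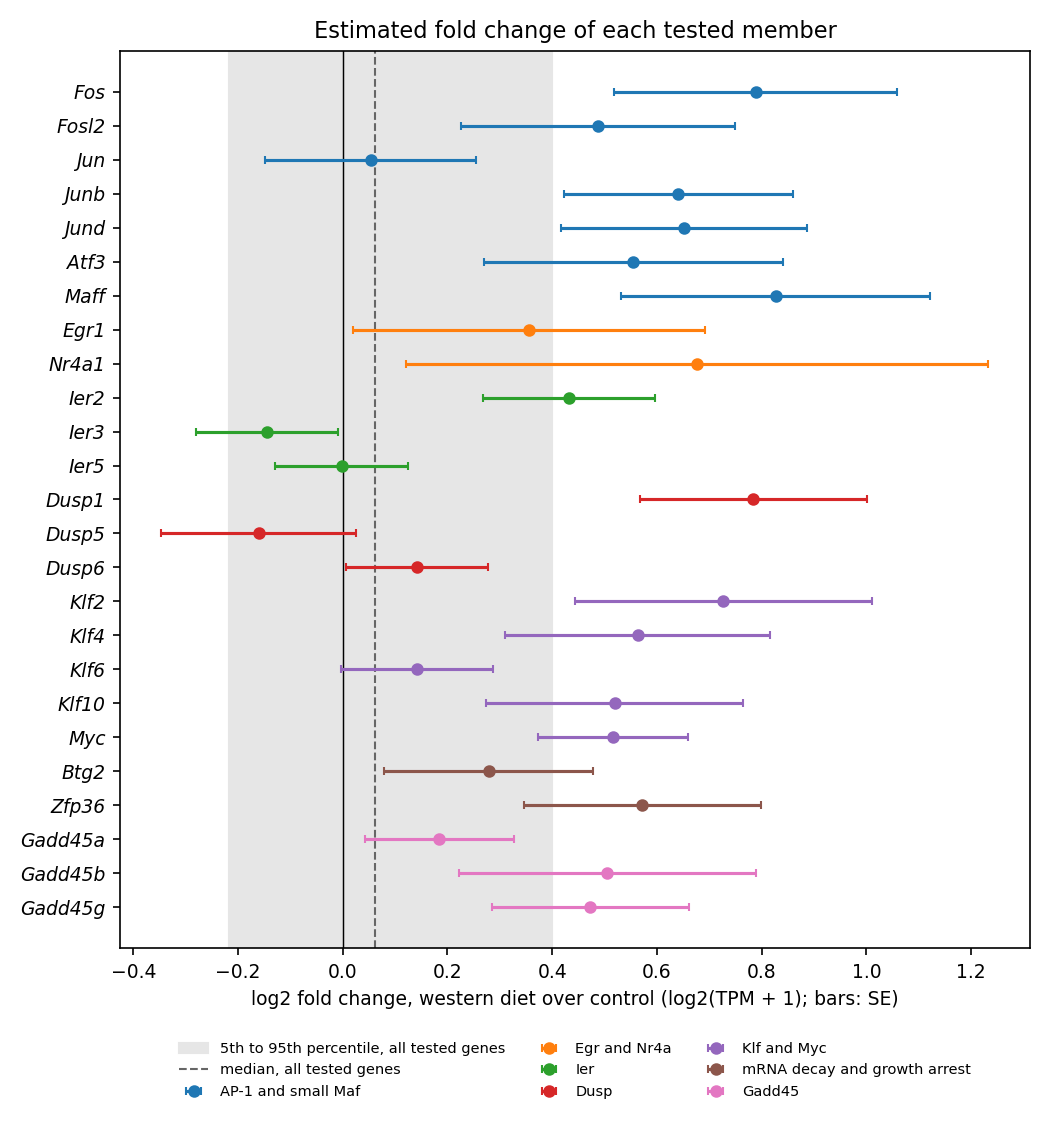
Estimated log2 fold change (western diet over control, on log2(TPM + 1); horizontal axis) of each of the 25 tested members, with bars of 1 SE and colours for the families. The dashed line is the median over all tested genes, 0.06, and the grey band their 5th to 95th percentile. Maff, Fos, Dusp1 and Klf2 lie farthest right, and Dusp5 and Ier3 lie left of 0.

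The excess was uneven between libraries, as the plot of deviations from the control mean shows. Relative to the mean of the 4 controls, the median of the 25 members on the log2(TPM + 1) scale was 0.74 in western diet replicate 1, 0.80 in replicate 2, -0.13 in replicate 3 and 0.29 in replicate 4, while single controls lay between -0.14 and 0.06. The same medians over all tested genes were 0.12, 0.16, 0.05 and -0.07 in western diet replicates 1 to 4. The next counts were chosen after these values were seen. Western diet replicate 1 lay above the highest control for 18 of 25 members (43.1% of all genes) and replicate 2 for 19 of 25 (50% of all genes). Replicates 1 and 2 lay above the highest control together for 17 of 25 members (31.4% of all genes), and replicates 1, 2 and 4 together for 11 of 25 (8% of all genes). Western diet replicate 4 did so for 14 of 25 (13.3% of all genes), and replicate 3 for 3 of 25, Dusp1, Klf10 and Myc (27% of all genes). With no control at 1 TPM, Myc could pass the filter only with every western diet library above every control, so it adds to each count. Without Myc, replicates 1 to 4 lay above the highest control for 17, 18, 2 and 13 of 24 members. Replicates 1 and 2 did so together for 16 of 24, and replicates 1, 2 and 4 for 10 of 24. Replicate 3 was the lowest of the western diet libraries for 17 of 25 members (22.8% of all genes) and below all 4 controls for 10 of 25 (19.7% of all genes). Y-linked transcripts were near 0 in western diet replicates 1 to 3 and at control level in replicate 4. By these transcripts the western diet group was mixed in sex, while every control was male. Sex and diet therefore cannot be fully told apart in any comparison of the groups here, including that of their spread.

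**Figure D2:**
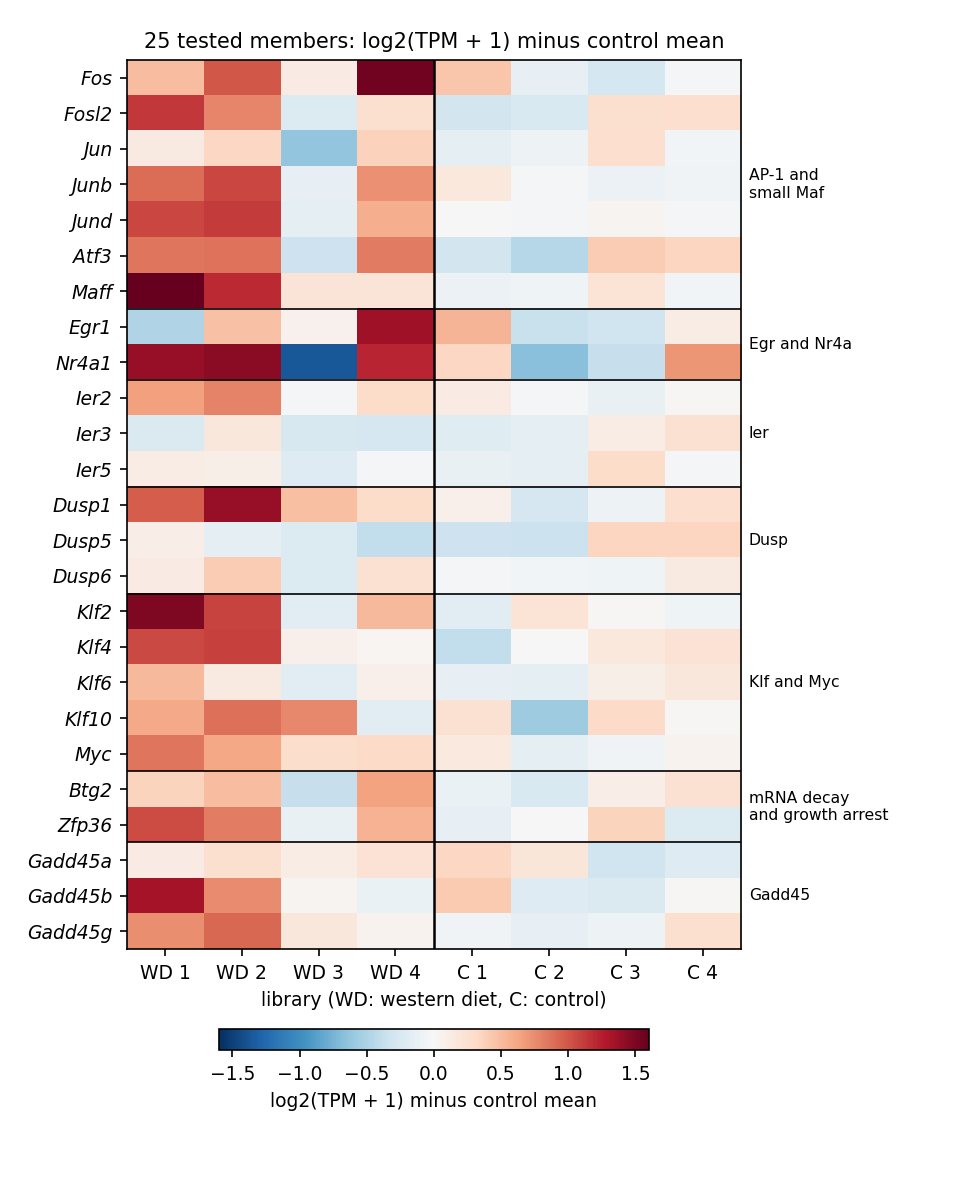
Deviation of log2(TPM + 1) from the control mean (colour, log2 units) for the 25 tested members (rows, grouped by family) in the western diet libraries (WD 1 to 4, left) and the controls (C 1 to 4, right). Western diet replicates 1 and 2 are high for most members, replicate 3 is near or below the controls with a median of -0.13, and replicate 4 is high for Fos, Egr1, Nr4a1, Atf3, Junb and Btg2 but not for Klf4, Gadd45b, Gadd45g or Maff.

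Within the western diet group the members varied more than in controls. The within-group SD of log2(TPM + 1) was larger with western diet for 22 of 25 members, against 61.9% of all genes, with a median of 0.494 with western diet and 0.217 in controls. Over all tested genes the medians were 0.174 and 0.142. Jund showed the contrast plainly, with an SD of 0.593 with western diet and 0.0344 in controls.

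Of the AP-1 family 7 of 9 members were tested, and all 7 had higher means with western diet (66.4% of all genes). Their median estimate was 0.64 on the log2 scale, and western diet replicate 3 was the lowest western diet library for all 7 (22.8% of all genes). None passed over all genes (0.301% of all genes did), and 4 were higher at an unadjusted p under 0.05 (9.2% of all genes). Fos (ENSMUSG00000021250, chromosome 12, 85473890 to 85477273 of GRCm38), the partner of Jun in the classical AP-1 dimer, was at 2.59, 4.07, 1.79 and 6.46 TPM in western diet replicates 1 to 4, against 2.47, 1.33, 1.099 and 1.503 TPM in control replicates 1 to 4. The groups overlap through western diet replicate 3 and control replicate 1. Fos averaged 3.73 ± 2.05 TPM with western diet and 1.602 ± 0.603 TPM in controls (SD, n = 4 each; log2 fold change 0.79, SE 0.27, limma adjusted p = 0.28).

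Junb, a Jun relative that also restrains Jun activity, was at 6.58, 7.52, 2.72 and 5.80 TPM with western diet, against 3.60, 3.02, 2.81 and 2.92 TPM in controls. Its paralogue Jund, the most steadily expressed Jun protein, was at 12.02, 12.5, 4.56 and 8.28 TPM with western diet, against 5.19, 5.09, 5.43 and 5.14 TPM in controls. For both genes western diet replicate 3 lay below all 4 controls and the other 3 western diet libraries above them. The log2 fold changes were 0.64 for Junb (chromosome 8, 84974484 to 84978718; SE 0.22, limma adjusted p = 0.28) and 0.65 for Jund (chromosome 8, 70698949 to 70700616; SE 0.23, limma adjusted p = 0.31). Without western diet replicate 3 both passed, Junb at 0.90 (limma adjusted p = 0.0227) and Jund at 0.92 (limma adjusted p = 0.0247). That refit called 2 of 25 members and 0.492% of all genes.

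Jun itself (chromosome 4, 95049034 to 95052222) was the most abundant AP-1 transcript of the controls, and its group means were close. It was at 13.6, 15.6, 7.45 and 15.9 TPM with western diet, against 10.9, 11.4, 14.8 and 11.7 TPM in controls (log2 fold change 0.05, SE 0.20, limma adjusted p = 0.95). This estimate turned negative under median-of-ratios scaling (-0.02) and quantile normalisation (-0.03), and without western diet replicate 2 (-0.04) or 4 (-0.05). As for Junb and Jund, western diet replicate 3 lay below all controls, and without it the Jun estimate was 0.28 (limma adjusted p = 0.37). Only western diet replicates 2 and 4 were above every control.

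Fosl2, which encodes Fra-2, was at 9.86, 7.48, 3.24 and 4.89 TPM with western diet, against 3.04, 3.17, 4.90 and 4.96 TPM in controls (chromosome 5, 32135801 to 32157842; limma adjusted p = 0.50). Atf3, a stress-induced factor that pairs with Jun proteins, was at 6.16, 6.23, 2.15 and 6.03 TPM with western diet, against 2.23, 1.88, 4.27 and 4.03 TPM in controls (chromosome 1, 191170296 to 191218039; limma adjusted p = 0.49). Only replicates 1 and 2 exceeded all controls for Fosl2, whereas replicate 4 also did for Atf3. Maff, a small Maf factor with no activation domain, was at 8.87, 5.95, 2.48 and 2.49 TPM with western diet, against 1.83, 1.88, 2.52 and 1.94 TPM in controls, so replicates 3 and 4 lay inside the control range (chromosome 15, 79346621 to 79359076; log2 fold change 0.83, SE 0.30, limma adjusted p = 0.30). Fosb was listed at 0 in all 4 controls and at no more than 0.297 TPM with western diet, and Fosl1 at no more than 0.0321 TPM in any library. Neither was tested.

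**Figure D3:**
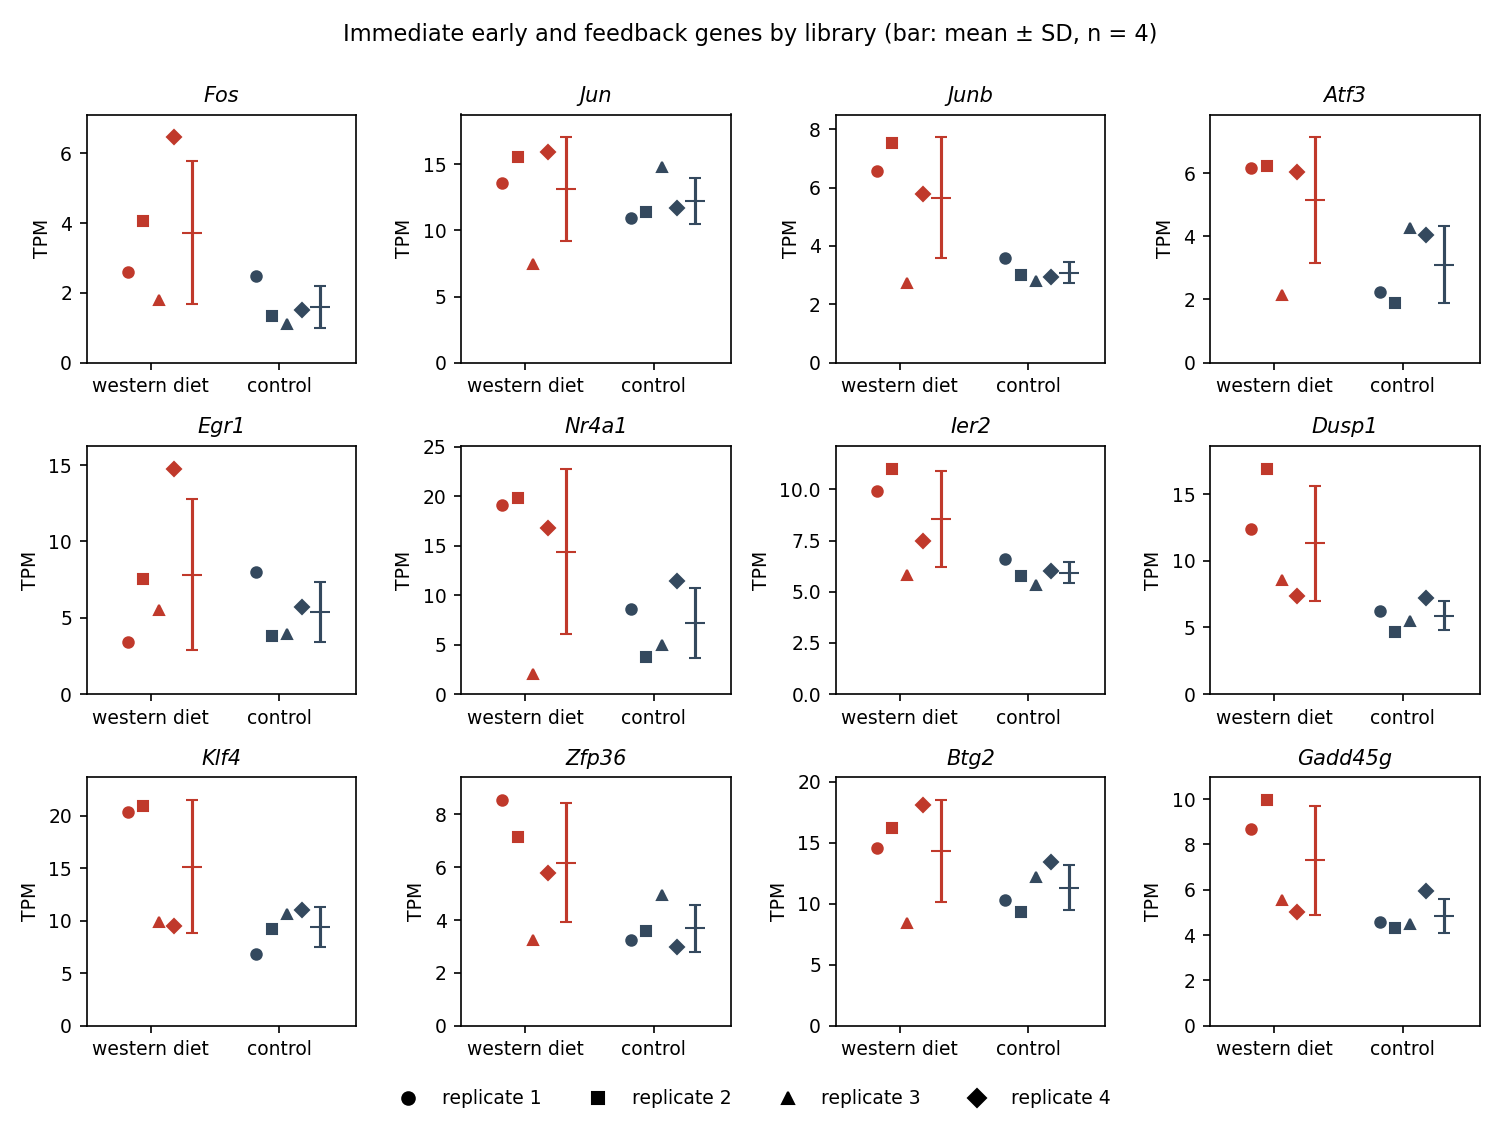
TPM (vertical axes, starting at 0) of 12 members in each library, western diet left and control right, with a marker shape for each replicate number and a bar for the mean ± SD (n = 4 per group). The numbers do not pair libraries across groups. Western diet replicate 3 (triangles) is the lowest western diet library for Fos, Jun, Junb, Atf3, Nr4a1, Ier2, Zfp36 and Btg2.

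Of the Egr and Nr4a genes 2 of 6 were tested, Egr1 and Nr4a1, and neither passed. Egr1 (ENSMUSG00000038418, chromosome 18, 34859823 to 34864984), a zinc finger factor induced through the ERK cascade, was at 3.42, 7.56, 5.48 and 14.8 TPM with western diet, against 8.01, 3.83, 3.94 and 5.69 TPM in controls. Its highest value, in western diet replicate 4, stood alone, and western diet replicate 1 was below all controls (log2 fold change 0.36, SE 0.34, limma adjusted p = 0.73). Nr4a1 (ENSMUSG00000023034, chromosome 15, 101254269 to 101274795), the orphan nuclear receptor Nur77, had the widest spread of the tested members. It was at 19.1, 19.8, 1.995 and 16.7 TPM with western diet, against 8.59, 3.80, 4.93 and 11.5 TPM in controls (log2 fold change 0.68, SE 0.56, limma adjusted p = 0.69). Western diet replicate 3 held the lowest Nr4a1 value of all 8 libraries and the other western diet libraries the 3 highest.

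The other Egr and Nr4a genes were too low to be tested. Nr4a3, the receptor NOR-1, was at 3.82, 3.63, 0.480 and 0.880 TPM with western diet, against 0.271, 0.313, 0.606 and 1.22 TPM in controls. Nr4a2, the receptor Nurr1, was at 0.554, 2.85, 0.414 and 0.394 TPM with western diet, against 0.244 to 0.419 TPM in controls. Both were highest in western diet replicates 1 and 2, though for Nr4a2 replicate 1 was far lower than replicate 2. Egr2 lay between 0.131 and 0.309 TPM with western diet and between 0.132 and 0.165 TPM in controls, and Egr3 at no more than 0.0800 TPM in any library.

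The 3 Ier genes were all tested and differed from each other. Ier2, a nuclear protein induced by growth factors, was at 9.94, 11.02, 5.82 and 7.48 TPM with western diet, against 6.58, 5.79, 5.36 and 6.02 TPM in controls, with replicate 3 inside the control range (chromosome 8, 84661331 to 84662852; log2 fold change 0.43, SE 0.16, limma adjusted p = 0.35). Ier3 and Ier5 had estimates of -0.14 (SE 0.14) and 0.00 (-0.0022, SE 0.13) on the log2 scale, with Ier3 at 16.7 to 23.3 TPM with western diet and 17.6 to 24.2 TPM in controls.

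Among the 3 tested phosphatases Dusp1 had the higher level with western diet, and Dusp5 and Dusp6 lay near 0 on the log2 scale. Dusp1 (ENSMUSG00000024190, chromosome 17, 26505590 to 26562128, a span that takes in a long transcript starting upstream of the promoter shown) encodes MKP-1, a nuclear phosphatase of p38, JNK and ERK. It was at 12.4, 16.9, 8.56 and 7.37 TPM with western diet, against 6.25, 4.67, 5.46 and 7.20 TPM in controls. All 4 western diet libraries lay above all 4 controls, though replicate 4 did so narrowly, and the means were 11.3 ± 4.30 and 5.90 ± 1.09 TPM (SD, n = 4 each; log2 fold change 0.78, SE 0.22, limma adjusted p = 0.18). Dusp6, a cytoplasmic phosphatase of ERK, was at 3.25 to 5.53 TPM with western diet and 3.70 to 4.44 TPM in controls (log2 fold change 0.14, SE 0.14), and Dusp5, a nuclear ERK phosphatase, at 1.503 to 2.54 TPM with western diet and 1.58 to 3.14 TPM in controls (log2 fold change -0.16, SE 0.19). Dusp2 and Dusp4 were not tested, at 0.135 to 0.401 and 0.499 to 1.46 TPM with western diet, against 0.0579 to 0.153 and 0.461 to 0.781 TPM in controls.

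All 5 genes of the Klf and Myc group were tested and had higher means with western diet (66.4% of all genes). Of the 5, 3 were higher at an unadjusted p under 0.05 (9.2% of all genes), and none passed the threshold (0.301% of all genes). Myc, which is among those 3, entered the test through the group in which it was high. Klf2, a factor induced by fluid shear stress in endothelium, was the most abundant tested member with western diet. It was at 38.1, 28.6, 11.3 and 18.9 TPM with western diet, against 11.4, 15.2, 13.1 and 12.3 TPM in controls, with replicate 3 below all controls and the other 3 above them (chromosome 8, 72319033 to 72321656; log2 fold change 0.73, SE 0.28, limma adjusted p = 0.35). Klf4 was at 20.3, 20.9, 9.87 and 9.46 TPM with western diet, against 6.81, 9.21, 10.6 and 11.05 TPM in controls, so replicates 3 and 4 were inside the control range (chromosome 4, 55527143 to 55532466; log2 fold change 0.56, SE 0.25, limma adjusted p = 0.42). Endothelial markers (Pecam1, Cdh5, Kdr, Tie1) summed to 135 to 151 TPM with western diet and 124 to 152 TPM in controls. In western diet replicate 1, in which Klf2 was highest, Pecam1 was the highest of all 8 libraries at 54.7 TPM and Kdr the lowest at 22.5 TPM, so single endothelial markers differed in direction there, and their part in the Klf2 values was not tested.

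Klf10, first known as a TGF-beta-induced early gene, was at 3.89, 4.88, 4.47 and 1.83 TPM with western diet, against 2.81, 1.16, 2.96 and 2.24 TPM in controls, and was thus high in replicate 3, unlike the other Klf genes (chromosome 15, 38291463 to 38300706; log2 fold change 0.52, SE 0.25, limma adjusted p = 0.44). Myc, a growth-promoting transcription factor, was at 2.19, 1.73, 1.15 and 1.196 TPM with western diet, against 0.971, 0.587, 0.704 and 0.847 TPM in controls (chromosome 15, 61985391 to 61990374; log2 fold change 0.52, SE 0.14, limma adjusted p = 0.18). Its groups did not overlap, at levels near the filter, and the filter fixed this because no control reached 1 TPM. Klf6 was at 8.19 to 13.7 TPM with western diet and 8.27 to 10.7 TPM in controls (log2 fold change 0.14, SE 0.14).

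The feedback genes Zfp36 and Btg2 followed the pattern of Fos, Junb, Jund, Atf3, Nr4a1, Ier2 and Klf2. Zfp36, the mRNA-destabilising protein tristetraprolin, was at 8.55, 7.14, 3.25 and 5.78 TPM with western diet, against 3.23, 3.59, 4.94 and 2.97 TPM in controls (chromosome 7, 28376784 to 28380253; log2 fold change 0.57, SE 0.23, limma adjusted p = 0.36). Btg2, an antiproliferative protein that promotes deadenylation, was at 14.6, 16.2, 8.41 and 18.1 TPM with western diet, against 10.3, 9.31, 12.2 and 13.4 TPM in controls (chromosome 1, 134075170 to 134079120; log2 fold change 0.28, SE 0.20, limma adjusted p = 0.64). In both, western diet replicates 1, 2 and 4 exceeded every control and replicate 3 did not.

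The Gadd45 genes are growth arrest and DNA damage inducible activators of p38 and JNK signalling. For them western diet replicate 4 did not exceed every control, as was also the case for Fosl2, Maff, Ier3, Ier5, Dusp5, Klf4, Klf6 and Klf10. Gadd45g was at 8.68, 9.96, 5.55 and 5.02 TPM with western diet, against 4.58, 4.31, 4.47 and 5.94 TPM in controls (chromosome 13, 51846678 to 51848468; log2 fold change 0.47, SE 0.19, limma adjusted p = 0.37). Gadd45b was at 7.33, 4.57, 2.42 and 2.07 TPM with western diet, against 3.44, 1.86, 1.82 and 2.34 TPM in controls (chromosome 10, 80930073 to 80932204; log2 fold change 0.51, SE 0.28, limma adjusted p = 0.53). Only replicates 1 and 2 lay above all controls for either gene. Gadd45a was steady with western diet, at 9.54 to 10.6 TPM, and at 6.79 to 11.2 TPM in controls (log2 fold change 0.18, SE 0.14).

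Pairs of members varied together across the 8 libraries more than pairs of genes at large. The median Pearson r on log2(TPM + 1) was 0.60 over the 300 member pairs and 0.29 over all pairs of tested genes, and 21% of member pairs and 5.58% of all pairs exceeded 0.8. On deviations from the group means the medians were 0.54 and 0.34, and 15% of member pairs and 8.2% of all pairs exceeded 0.8. These values are descriptions, since the pairs share libraries. The highest r were those of Junb with Jund (0.97), Dusp1 with Gadd45g (0.97), Jund and Junb with Ier2 (0.96 each) and Jund with Klf2 (0.96). By family the median r was 0.77 within AP-1 and Maff, 0.72 within Klf and Myc, and 0.71 between those families. On deviations from the group means these were 0.67, 0.68 and 0.60. Egr1 and Nr4a1 differed in this: with Klf2, Klf4, Klf6, Klf10 and Myc, r was 0.72, 0.57, 0.73, 0.14 and 0.65 for Nr4a1, and -0.08, -0.26, -0.22, -0.09 and 0.09 for Egr1. Dusp5 and Gadd45a had the most negative r (-0.89), with Dusp5 high and Gadd45a low in control replicates 3 and 4.

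**Figure D4:**
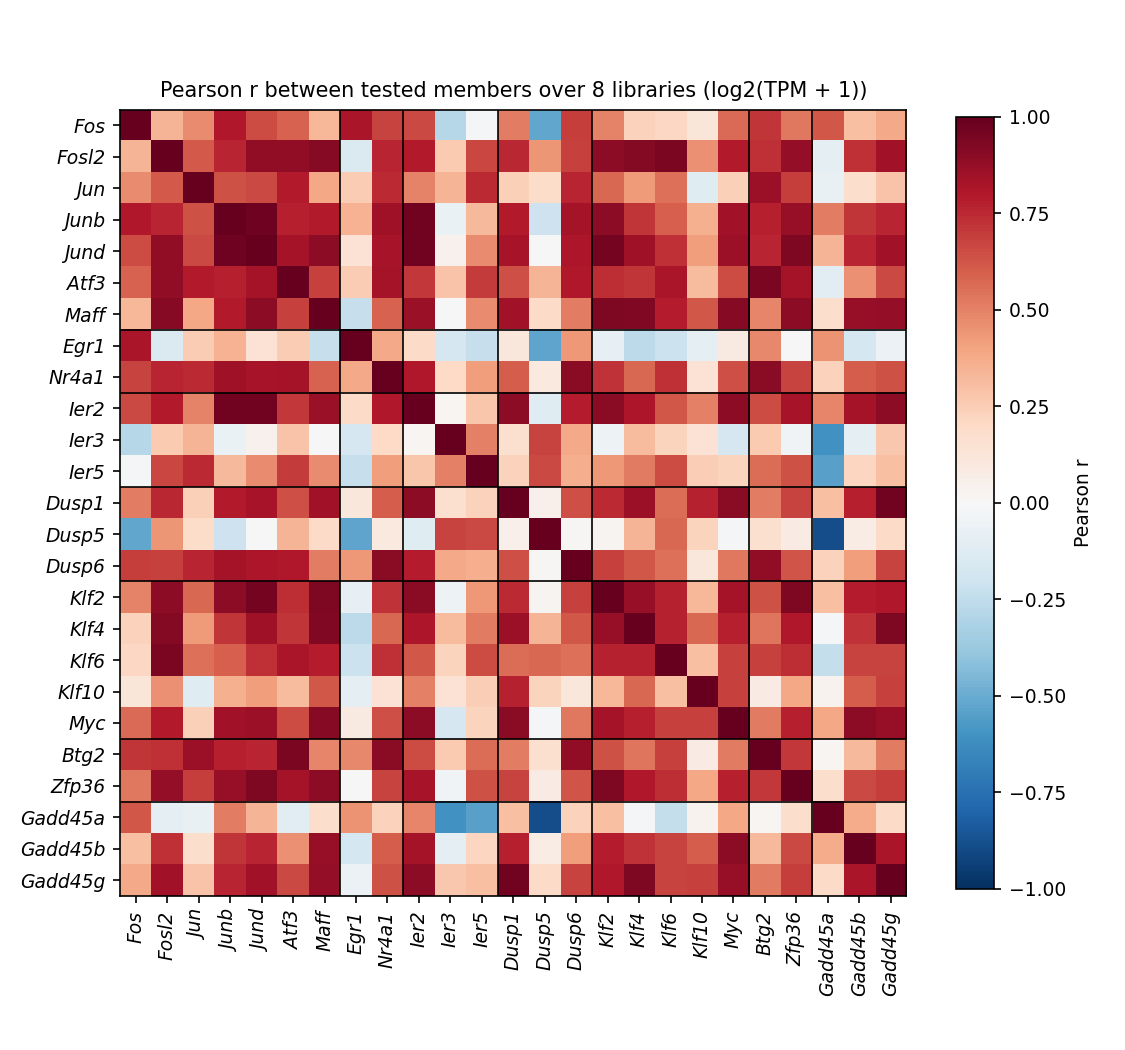
Pearson r over the 8 libraries (colour) between each pair of the 25 tested members, ordered by family with lines between families. A broad block of high r joins Fosl2, Junb, Jund, Maff, Ier2, Dusp1, Klf2, Klf4, Myc and Zfp36, while Egr1, Ier3, Dusp5 and Gadd45a stand outside it, with an r of -0.89 between Dusp5 and Gadd45a.

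Fos was taken as the anchor of the set, and which members were most like it depended on the measure. By Pearson r these were Egr1 and Junb, and by Spearman rho Ier2 (rho = 0.90, exact permutation p = 0.0046, adjusted p = 0.73) and Myc (rho = 0.86, exact permutation p = 0.0107, adjusted p = 0.75), whose r were 0.66 and 0.57. Across the 8 libraries Fos and Egr1 had r = 0.82 (exact permutation p = 0.0127, adjusted p = 0.71 over 10968 genes) and Spearman rho = 0.55 (exact permutation p = 0.17, adjusted p = 0.90), and r was 0.87 on deviations from the group means. Without western diet replicates 2 and 4, the libraries farthest from the median of Fos, r with Egr1 was 0.32, so this relation rests on them. Fos and Junb had r = 0.80 (exact permutation p = 0.0168, adjusted p = 0.72) and rho = 0.76 (exact permutation p = 0.0368, adjusted p = 0.77), with r = 0.74 without those libraries and 0.62 on deviations from the group means. Without those libraries Gadd45b (r = 0.87), Ier2 (0.79) and Myc (0.78) were above Junb. With Klf4 and Maff, r was 0.23 and 0.33, and -0.26 and -0.21 on deviations from the group means. The median r of Fos with the other 24 tested members was 0.50, and 0.08 on deviations from the group means. No relation with Fos passed an adjusted p of 0.05.

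Genes most like Fos were sought among those with a mean of at least 5 TPM, leaving out unnamed and predicted genes, clones and pseudogenes. The 10 with the highest r to Fos over the 8 libraries were Prnp, Plpp7, Zfyve19, Abra, Trim72, Vkorc1, Ccn1, Rcan1, Hspb8 and Abhd11, with r between 0.89 and 0.94 (exact permutation, adjusted p between 0.62 and 0.71). Without western diet replicates 2 and 4 their r lay between 0.60 (Abra) and 0.95 (Abhd11). Ccn1, a matricellular protein that is itself an immediate early gene, was at 16.6, 20.7, 15.99 and 26.9 TPM with western diet, against 21.0, 15.4, 11.6 and 13.2 TPM in controls. Rcan1, an inhibitor of calcineurin, was at 42.8, 54.1, 38.5 and 54.0 TPM with western diet, against 41.6, 33.9, 39.2 and 38 TPM in controls. Western diet replicates 2 and 4 were the highest libraries for Rcan1, as for Fos, while for Ccn1 control replicate 1 lay above western diet replicate 2. Both genes are shown for their known roles, a choice made after their values were seen.

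Related genes outside the members were lists of signalling and early response genes. Of 12 tested members of the ERK cascade list 0 passed, with a median log2 fold change of 0.06, and the feedback inhibitor Spry1 had the smallest p (10.5 ± 2.36 TPM with western diet and 7.48 ± 0.847 TPM in controls; limma adjusted p = 0.29), followed by the kinase Map2k1 (19.3 ± 2.74 TPM with western diet and 17.2 ± 1.63 TPM in controls; limma adjusted p = 0.66). Of 13 tested p38 and JNK genes 0 passed, with a median of 0.06. Mapk12, the p38 gamma kinase of striated muscle, was at 7.42 ± 0.962 TPM with western diet and 11.03 ± 1.36 TPM in controls (limma adjusted p = 0.11), and Dusp10, a phosphatase of p38 and JNK, at 1.61 ± 0.552 TPM with western diet and 2.70 ± 0.151 TPM in controls (limma adjusted p = 0.18), both without overlap of the groups and opposite in sign to Dusp1. Of 12 factors upstream of early genes 0 passed, with a median of 0.12. Srf, the factor that binds CArG boxes, was at 30.8, 30.0, 21.7 and 24.5 TPM with western diet, against 19.4, 14.9, 20.2 and 20.2 TPM in controls, with no overlap (log2 fold change 0.49, SE 0.13, limma adjusted p = 0.18). Its coactivator Mrtfa was at 1.36 ± 0.134 TPM with western diet and 0.973 ± 0.0918 TPM in controls (limma adjusted p = 0.34). Of 25 tested early response genes that are not members 0 passed, with a median of 0.19. Sgk1, a kinase induced by serum and glucocorticoids, was at 30.2 ± 6.78 TPM with western diet and 18.2 ± 4.10 TPM in controls (limma adjusted p = 0.14), and the small GTPase Rhob at 51.5 ± 14.4 TPM with western diet and 34.4 ± 1.90 TPM in controls (limma adjusted p = 0.23).

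Markers of some other cell types also differed between the groups. Macrophage markers (Adgre1, Csf1r, C1qa, C1qb, Cd68) summed to 167, 108, 101 and 106 TPM with western diet and 80.4 to 99.0 TPM in controls. Of these, 5 of 5 were higher (66.4% of all genes) and 0 of 5 passed the threshold. The macrophage sum was mostly C1qa and C1qb (log2 fold changes 0.442 and 0.445), while Adgre1, Csf1r and Cd68 had estimates of 0.30, 0.10 and 0.14. Kidney tubule markers (Kap, Umod, Miox, Slc34a1) summed to 10.8, 9.02, 14.2 and 79.0 TPM with western diet and 0 to 0.685 TPM in controls, with Kap higher with western diet (limma adjusted p = 0.0169) and Umod, Miox and Slc34a1 at 0 in all controls. The neutrophil transcripts S100a8 and S100a9 summed to 7.85 to 15.5 TPM with western diet and 3.69 to 6.89 TPM in controls, with S100a8 higher with western diet (log2 fold change 1.03, limma adjusted p = 0.0319) and the highest sum in western diet replicate 3. Fibroblast markers (Col1a1, Dcn, Pdgfra, Lum) summed to 246 to 320 TPM with western diet and 251 to 347 TPM in controls. That sum was mostly Dcn (log2 fold change -0.05), while Col1a1, Pdgfra and Lum had estimates of 0.43, 0.23 and 0.54, and none of them passed. Smooth muscle and pericyte markers (Myh11, Acta2, Tagln, Pdgfrb, Rgs5) summed to 201 to 275 TPM with western diet and 180 to 211 TPM in controls. Within that list the genes differed in direction. Acta2 was at 117, 71.0, 87.1 and 47.9 TPM with western diet, against 30.7, 26.3, 39.1 and 37.4 TPM in controls, with no overlap (log2 fold change 1.196, limma adjusted p = 0.063). Tagln was lower with western diet (log2 fold change -0.83, limma adjusted p = 0.0169), and Myh11 and Pdgfrb had estimates of -0.53 and -0.33 that did not pass. The part of these markers, and of haemoglobin and mitochondrial RNA, in the member values was not tested. With a model term for Y-linked transcripts the diet estimate rests on western diet replicate 4. The log2 fold changes were then 1.55 for Fos, 1.36 for Egr1, 0.29 for Dusp1, 0.03 for Klf4 and 0.06 for Gadd45g. The median was 0.29 over the 25 tested members and -0.07 over all genes, against 0.51 and 0.06 without the term.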

How the data were processed

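The authors deposited 1 table of TPM per Ensembl gene and library. Per the labels' protocols, RNA was taken with a Qiagen kit and polyadenylated RNA was made into TruSeq stranded libraries, and kallisto, DESeq2 and the build GRCm38 are listed, without versions or roles, per the submitters' processing notes. The annotation release is not given in the sources used here. Columns summed to between 941318 and 953448, and TPM is relative, so highly abundant transcripts depress the remaining values. No pair of libraries held identical values, and replicate numbers follow accession order and pair nothing.

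Names and coordinates came from GENCODE vM21 (GRCm38), which named 29732 of 30153 identifiers. Genes reaching 1 TPM in 4 or more libraries were tested with limma 3.58.1 (R 4.3.3) on log2(TPM + 1) (group as the only term, intensity trend, two-sided, Benjamini-Hochberg over all 10969 genes, adjusted p under 0.05). Fold changes on this scale understate the change of low genes. A count model was not used because TPM values are not counts. Correlations with Fos used all 40320 orders of the libraries.

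Members and lists were chosen with earlier results of these data known. Values per library are given for 12 fixed members and for any tested member with an unadjusted p under 0.05, no overlap of groups, or a highest library at least 3 times its lowest. Ccn1, Rcan1, Srf, Mapk12 and Dusp10 are among the genes taken by likeness to Fos or by smallest p in a list. Alternatives were other pseudocounts, filters, scalings, variance priors, library weights, a Y-linked term, fewer libraries and an adjusted p under 0.10. Leaving out libraries for the Fos correlation was added after the data were seen. Figures used Python 3.11.15 and matplotlib 3.10.9.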

Additional observations from a re-analysis of the deposited data

Results flagged for a closer look

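A library far from the other 3 of its group was found in 9 of the 64 groups of 4 values examined (Dixon's gap-to-range ratio above its 95% critical value, which chance gives in about 1 of 20 groups). Atf3 was at 2.15 TPM in western diet replicate 3, where the rest of its group had 6.03 to 6.23 TPM. Nr4a1 was at 1.995 TPM in the same library, against 16.7 to 19.8 TPM. Western diet replicate 2 was high for Nr4a2, at 2.85 TPM against 0.394 to 0.554 TPM, and for Ier3, at 23.3 TPM against 16.7 to 17.2 TPM. It was also the single western diet library above 0 for Fosl1, at 0.0321 TPM, and for Egr3, at 0.0677 TPM. With the other 3 values at 0 the ratio is at its maximum whatever the fourth value is, so these 2 of the 9 carry no information and the chance rate does not apply to them. Among controls, Dusp6 was at 4.44 TPM in replicate 4 (3.70 to 3.80 TPM in the others), Gadd45g at 5.94 TPM in replicate 4 (4.31 to 4.58 TPM) and Maff at 2.52 TPM in replicate 3 (1.83 to 1.94 TPM).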

How the results depend on the processing

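No member passed in any of the 20 refits except Junb and Jund without western diet replicate 3, so the count of members called higher ranged from 0 to 2 when each library was left out and the count called lower stayed at 0. An adjusted p under 0.10 also called 0 members. Of 490 member estimates under alternatives 477 kept their direction and side of the threshold, 2 became calls and 11 changed sign, and the cause was not tested. Those 11 belong to 4 members with small or uneven differences. Jun was -0.018 under median-of-ratios scaling, -0.030 under quantile normalisation, and -0.04 and -0.050 without western diet replicates 2 and 4, with a range of -0.050 to 0.28 when each library was left out. Ier5 was 0.048 with library weights, 0.049 without the libraries with atrial transcripts, 0.07 and 0.0027 without western diet replicates 3 and 4, and 0.10 without control replicate 3, with a range of -0.0495 to 0.10. With the Y-linked term Klf10 was -0.18 and Gadd45b to -0.11.

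Over all genes, 25 were called higher and 8 lower. Called higher and lower were 3 and 2 with no filter, 13 and 2 at a mean of at least 5 TPM, 40 and 21 under quantile normalisation, 88 and 20 with library weights, 5 and 0 without the libraries with atrial transcripts, and 79 and 16 at an adjusted p under 0.10. Scaling without mitochondrial genes called 40 higher, the Y-linked term 45 higher, and median-of-ratios scaling 13 lower. Leaving out 1 library gave 5 to 76 higher and 2 to 19 lower. The median r of Fos with the other members was 0.50, 0.077 on deviations from the group means, 0.40 without the 2 libraries farthest from the median of Fos, and 0.38 to 0.64 when each library was left out. No paired analysis was possible because the labels give no shared replicate numbers. TPM keeps no depth, so limits for low members cannot be given.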
